A study of Solanum lycopersicum with 86 samples.

Results

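Of the 23050 tomato genes in the deposited table, the 9 described here belong to the synthesis and breakdown of abscisic acid, with 5 genes of synthesis, among them 3 for 9-cis-epoxycarotenoid dioxygenases (NCED), and 4 of breakdown. They were named by identifier: NCED1 is Solyc07g056570, NCED2 is Solyc08g016720, NCED6 is Solyc05g053530, the aldehyde oxidase is Solyc01g009230 and the MoCo sulfurase is Solyc07g066480. The 4 CYP707A genes are Solyc04g078900, Solyc08g005610, Solyc04g071150 and Solyc01g108210. All 9 were in the table. The table holds identifiers only, and 0 of them matched the reference gene table, so the enzyme names could not be checked against the files. The list was drawn up by pathway, except that NCED6 was selected on its scaled reads after 6 h of far-red light, which had been seen to be high. The 6 h values below therefore describe and carry no test.

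Abscisic acid is the plant hormone that closes stomata, holds seeds dormant and accumulates under drought. Its supply is set by synthesis and by breakdown. In synthesis, NCED cleaves a carotenoid to xanthoxin, the step usually held to limit the rate; an aldehyde oxidase later turns abscisic aldehyde into abscisic acid, and this oxidase works only with a molybdenum cofactor (MoCo) that a MoCo sulfurase has activated. In breakdown, cytochrome P450 enzymes of the CYP707A family hydroxylate abscisic acid, which then rearranges to phaseic acid. The tomato mutants notabilis, sitiens and flacca, which wilt for want of the hormone, are defective in NCED1, in the aldehyde oxidase step and in the MoCo sulfurase. In Arabidopsis, light low in red relative to far-red has been linked to more abscisic acid in axillary buds.

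The samples were the first internodes of tomato seedlings, that is the stem above the cotyledons and below the first leaf, or the pith dissected from them; pith lies at the core of the stem and is also part of the whole internode. Their RNA was sequenced. Plants of the cultivars Moneymaker and M82 spent a week germinating and a week in soil at 20 °C and 70% humidity with 16 h of light and 8 h of dark. Light treatment followed, either white light alone at 200 PAR (WL) or that light supplemented with far-red (FR) to a red to far-red ratio of 0.21. Internodes were taken after 6, 24, 30 and 48 h and pith after 30 and 48 h. For Moneymaker there were 19 FR and 13 WL internode libraries and 8 FR and 6 WL pith libraries; for M82 there were 11 FR and 15 WL internode libraries and 5 FR and 9 WL pith libraries. These 86 libraries form 24 groups of 2 to 6.

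Values are read counts that the authors divided by 1 factor per library, called scaled reads here. Tests were run with limma on log2(scaled reads + 1) over the 19029 genes with a mean of at least 1 scaled read, all groups sharing 1 estimate of the spread; genes with an adjusted p below 0.05 (Benjamini-Hochberg, over all genes tested) are named as called. Fold changes are on that log2 scale, given ± SE, and understate the change of genes with few reads. In whole tissue, fewer cells of a type and less RNA per cell cannot be told apart, and near-identical copies or overlapping antisense genes could not be separated with the table alone.

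Recovered depth ran from 0.769 to 22.1 M reads per library, with a median of 2.98 M. In 12 of the 86 libraries, expression stood apart from a label: 9 lay on the other cultivar's side of a score built from 40 genes per direction that differ between the cultivars (6 labelled M82 and 3 labelled Moneymaker), and 3 did not show the time-of-day expression of their labelled hour. Of these 12, 11 are WL and 1 is FR. They were kept under their labels; shares of genes called are with all libraries unless said otherwise, and are given again without the 12 where they move by over 1.5 times, as are the members' calls that change. The treatment field of 19 Moneymaker WL libraries carries the FR tag, and the titles, which give WL, were used. The labels call the samples biological replicates; where plants shared a growth batch, the p-values measure the spread between such samples.

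The 9 genes lay far apart in reads per library. The aldehyde oxidase averaged 29.3 scaled reads over the 86 libraries and ranged from 6.63 to 44.1. The MoCo sulfurase averaged 17.6 and ranged from 6.13 to 43.4. Both were read in every library. NCED1 averaged 5.87 and was at 0 in 2 libraries, NCED2 averaged 0.911 and was at 0 in 28, and NCED6 averaged 1.34 and was at 0 in 52. Among the CYP707A genes, Solyc04g078900 averaged 14.6, Solyc01g108210 4.86, Solyc08g005610 2.24 and Solyc04g071150 2.00. Gene lengths were not available, so these means do not rank the genes by transcript level. NCED2 missed the filter, and 8 of the 9 genes were tested; NCED6 passed it through its 6 h FR libraries.

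NCED6 codes for a dioxygenase of the first dedicated step, and its Arabidopsis namesake acts in seeds. In M82 internodes after 6 h of FR the 3 libraries held 21.9, 25.0 and 5.16 scaled reads, which are 70, 66 and 72 reads. The 4 WL libraries of that hour were all at 0. In Moneymaker the 5 FR libraries held 6.98, 12.4, 13.1, 6.29 and 2.84 scaled reads, from 42, 26, 31, 53 and 4 reads. Both WL libraries were at 0. Of all genes tested, 3.83% lay wholly above WL at this hour in M82 and 4.25% in Moneymaker.

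Every FR library at 6 h thus stood above every WL library in both cultivars, and the FR means were 17.4 ± 10.7 (SD, n = 3) in M82 and 8.32 ± 4.34 (SD, n = 5) in Moneymaker. Set against the level that 3 reads over the whole WL group would give, the FR mean was at least 103-fold higher in M82 and at least 14.7-fold higher in Moneymaker. The lower bound in Moneymaker rests on 2 WL libraries. Of the 4 WL libraries of M82, replicates 1 and 5 stood apart from their cultivar label; replicates 2 and 3 did not, and all 4 held no read. Depth limits what 0 can mean here: 3 reads correspond to 0.169 scaled reads over the M82 WL group and 0.567 over the Moneymaker WL group.

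**Figure D1:**
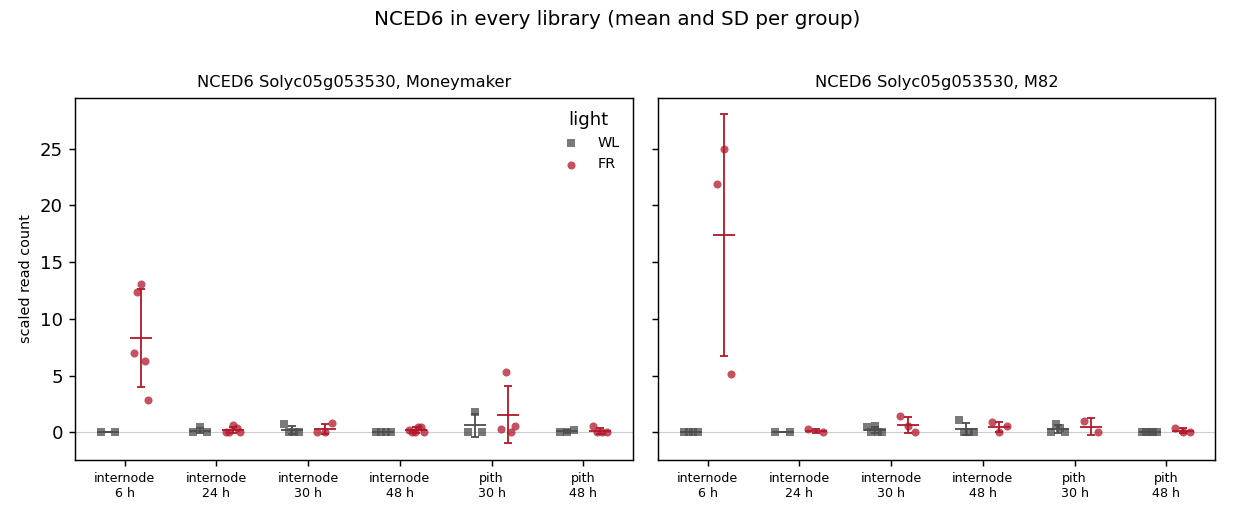
Scaled reads of NCED6 (Solyc05g053530) in each library, by tissue and hour, with Moneymaker and M82 in separate panels. Squares are WL and circles FR libraries, with the mean and SD of each group. The 6 h FR libraries sit between 2.84 and 25.0, and all WL libraries of that hour are at 0.

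From 24 h on the NCED6 values were at or near 0 under both lights. In M82 internodes the 30 h FR libraries held 1.41, 0.579 and 0 scaled reads, and the 48 h FR libraries held 0.862, 0 and 0.558. In Moneymaker internodes no library at 24, 30 or 48 h passed 0.777. The highest value of the gene outside the 6 h FR groups was 5.31, from 4 reads in the shallowest library, Moneymaker FR pith at 30 h replicate 3; the next was 1.81 in a Moneymaker WL pith library of the same hour. Groups of FR and WL overlapped at every later hour in both tissues.

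Averaged over 24, 30 and 48 h, the log2 fold change of NCED6 under FR was 0.12 ± 0.23 in Moneymaker internodes (limma adjusted p = 0.891) and 0.27 ± 0.28 in M82 internodes (adjusted p = 0.840). In pith it was 0.24 ± 0.31 in Moneymaker (adjusted p = 0.925) and 0.17 ± 0.32 in M82 (adjusted p = 0.794). None of these passed the test. NCED6 was among the genes tested, and counts among the 8 members below, only because its 6 h FR libraries carried it past the filter. With NCED6 at 0 in 52 of the 86 libraries, a small later difference was not detectable at this depth.

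NCED1, the dioxygenase mutated in notabilis, lay above WL at 6 h in Moneymaker and not in M82. In Moneymaker the FR libraries held 7.15, 12.9, 4.65, 9.38 and 13.5 scaled reads and the WL libraries 3.59 and 2.61, with no overlap, where 4.25% of all genes lay wholly above WL. In M82 the FR libraries held 2.82, 2.65 and 0.717 and the WL libraries 6.51, 17.7, 0.538 and 12.3, and the groups overlapped. The log2 difference was 1.28 ± 0.78 in Moneymaker and -1.35 ± 0.71 in M82, or -0.90 without the 2 M82 WL libraries that stood apart, so the signs were opposite; the difference between the cultivars was not tested. In M82, 3.37% of all genes lay wholly below WL at this hour, and NCED1 was not among them. NCED2, with fewer reads, held 2.66, 0, 0, 0 and 0.709 under FR and 1.80 and 0 in WL in Moneymaker, and 0, 1.51 and 0 under FR and 0.930, 0.788, 0.0897 and 0 in WL in M82. It overlapped in both.

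**Figure D2:**
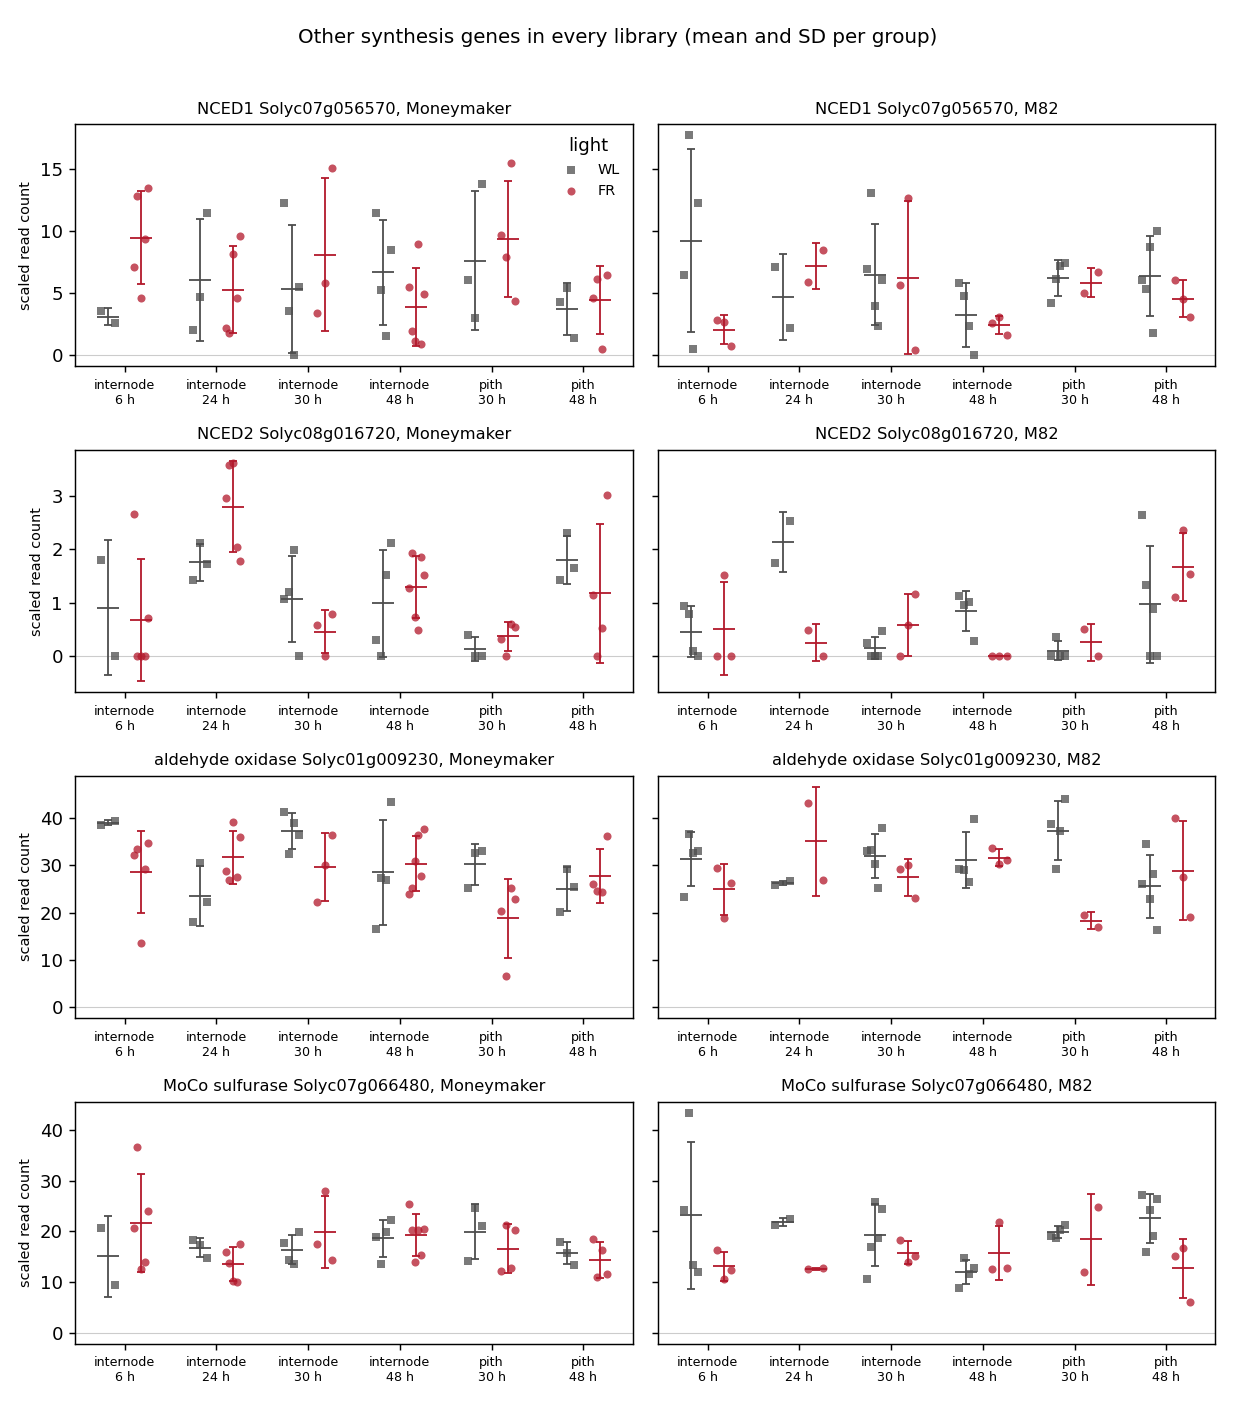
Scaled reads of NCED1, NCED2, the aldehyde oxidase and the MoCo sulfurase in each library, by tissue and hour, with Moneymaker and M82 in separate columns. Squares are WL and circles FR libraries, with the mean and SD of each group. At 6 h NCED1 lies higher under FR in Moneymaker and mostly lower under FR in M82, while the aldehyde oxidase keeps to 6.63 to 44.1 throughout.

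The aldehyde oxidase, which makes abscisic acid itself, was lower in all 5 Moneymaker FR libraries at 6 h, at 32.2, 33.4, 13.5, 29.2 and 34.7 scaled reads, than in both WL libraries, at 38.6 and 39.4. The log2 difference was -0.50 ± 0.31, and 4.55% of all genes lay wholly below WL in that comparison. In M82 it was -0.33 ± 0.29 with overlapping groups. For the MoCo sulfurase the difference was 0.49 ± 0.36 in Moneymaker and -0.62 ± 0.33 in M82, again with overlap, and leaving out 1 library turned the Moneymaker sign. The median over all genes was -0.019 in Moneymaker and 0.005 in M82.

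The FR and WL groups of all 4 breakdown genes overlapped at 6 h in both cultivars. For Solyc01g108210 the difference was 1.01 ± 0.71 in Moneymaker and -0.96 ± 0.65 in M82. For Solyc08g005610 it was 0.21 ± 0.69 and 1.13 ± 0.63. For Solyc04g071150 it was -0.06 ± 0.57 and -0.83 ± 0.52, and for Solyc04g078900 -0.23 ± 0.71 and 0.43 ± 0.65. Each of these lay within 2 SE of 0, and leaving out 1 library turned the sign for Solyc04g078900 in both cultivars and for Solyc08g005610 and Solyc04g071150 in Moneymaker. Without the 2 M82 WL libraries that stood apart, Solyc04g078900 gave -0.46 and Solyc04g071150 -0.37 in M82.

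After 24 h of FR or more, none of the 8 genes tested was called in internodes. In Moneymaker 0 of 8 passed limma, where 1.25% of all genes did, and in M82 0 of 8 passed, where 0.352% did. None of these 8 reached an unadjusted p of 0.05 in either cultivar, with limma, edgeR or DESeq2. The nearest was Solyc04g071150 in Moneymaker, with a log2 fold change of -0.54 ± 0.28 (limma adjusted p = 0.397). The median over the 8 members was -0.008 in Moneymaker and 0.043 in M82, against 0.011 and -0.019 over all genes.

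In Moneymaker pith 0 of 8 members were called with limma, none of them at an unadjusted p of 0.05, against 0.504% of all genes; edgeR and DESeq2 also called 0, with 1 at an unadjusted p of 0.05 each. Solyc04g078900 had the largest difference there, with a log2 fold change of 0.82 ± 0.46 (limma adjusted p = 0.690). Its 30 h FR libraries held 7.19, 37.1, 43.0 and 15.3 scaled reads and its WL libraries 6.85, 13.3 and 12.6. At 48 h the FR libraries held 23.4, 30.6, 20.9 and 6.73 and the WL libraries 13.6, 11.5 and 7.54. The FR values spread wider than the WL values at both hours, and the groups overlapped.

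In M82 pith, 1 breakdown gene was lower under FR. After 30 h of FR, Solyc04g071150 held 1.00 and 0.558 scaled reads in the 2 libraries, against 2.83, 4.68, 3.40 and 6.91 in WL. After 48 h it held 1.52, 2.18 and 0.766 under FR, against 4.92, 4.65, 3.15, 3.52 and 3.64 in WL. Over the 2 hours there were 5 FR and 9 WL libraries, and every FR library lay below every WL library of its hour. The same held for 7.89% of all genes at 30 h and 3.36% at 48 h. The mean was 1.20 scaled reads over the 5 FR libraries and 4.19 over the 9 WL libraries. Over the 2 times the log2 fold change was -1.30 ± 0.38 (limma adjusted p = 0.0393). Solyc04g071150 was the 1 member of 8 called there, where 3.71% of all genes were called in either direction and 1.43% were lower. Of these 9 WL libraries, 4 are among the 12 that stood apart; without the 12, 0.883% of all genes were called, 66 higher and 102 lower, against 433 and 273 with them. Scaled by DESeq2 size factors, with all libraries, 291 were higher and 323 lower. The values rest on 1 to 17 reads per library.

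The call for Solyc04g071150 in M82 pith sat close to the threshold. On the recovered reads edgeR gave a log2 fold change of -1.94 (adjusted p = 0.137) and DESeq2 -2.03 (adjusted p = 0.0642). Without the 12 libraries that stood apart, the log2 fold change was -1.36 ± 0.44 (limma adjusted p = 0.125). Leaving out 1 library of the comparison ended the call for 7 of the 14: FR 30 h replicates 1 (adjusted p = 0.0668) and 3 (0.166), FR 48 h replicate 4 (0.149), WL 30 h replicates 3 (0.0511) and 4 (0.079), and WL 48 h replicates 1 (0.0573) and 6 (0.0558).

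**Figure D3:**
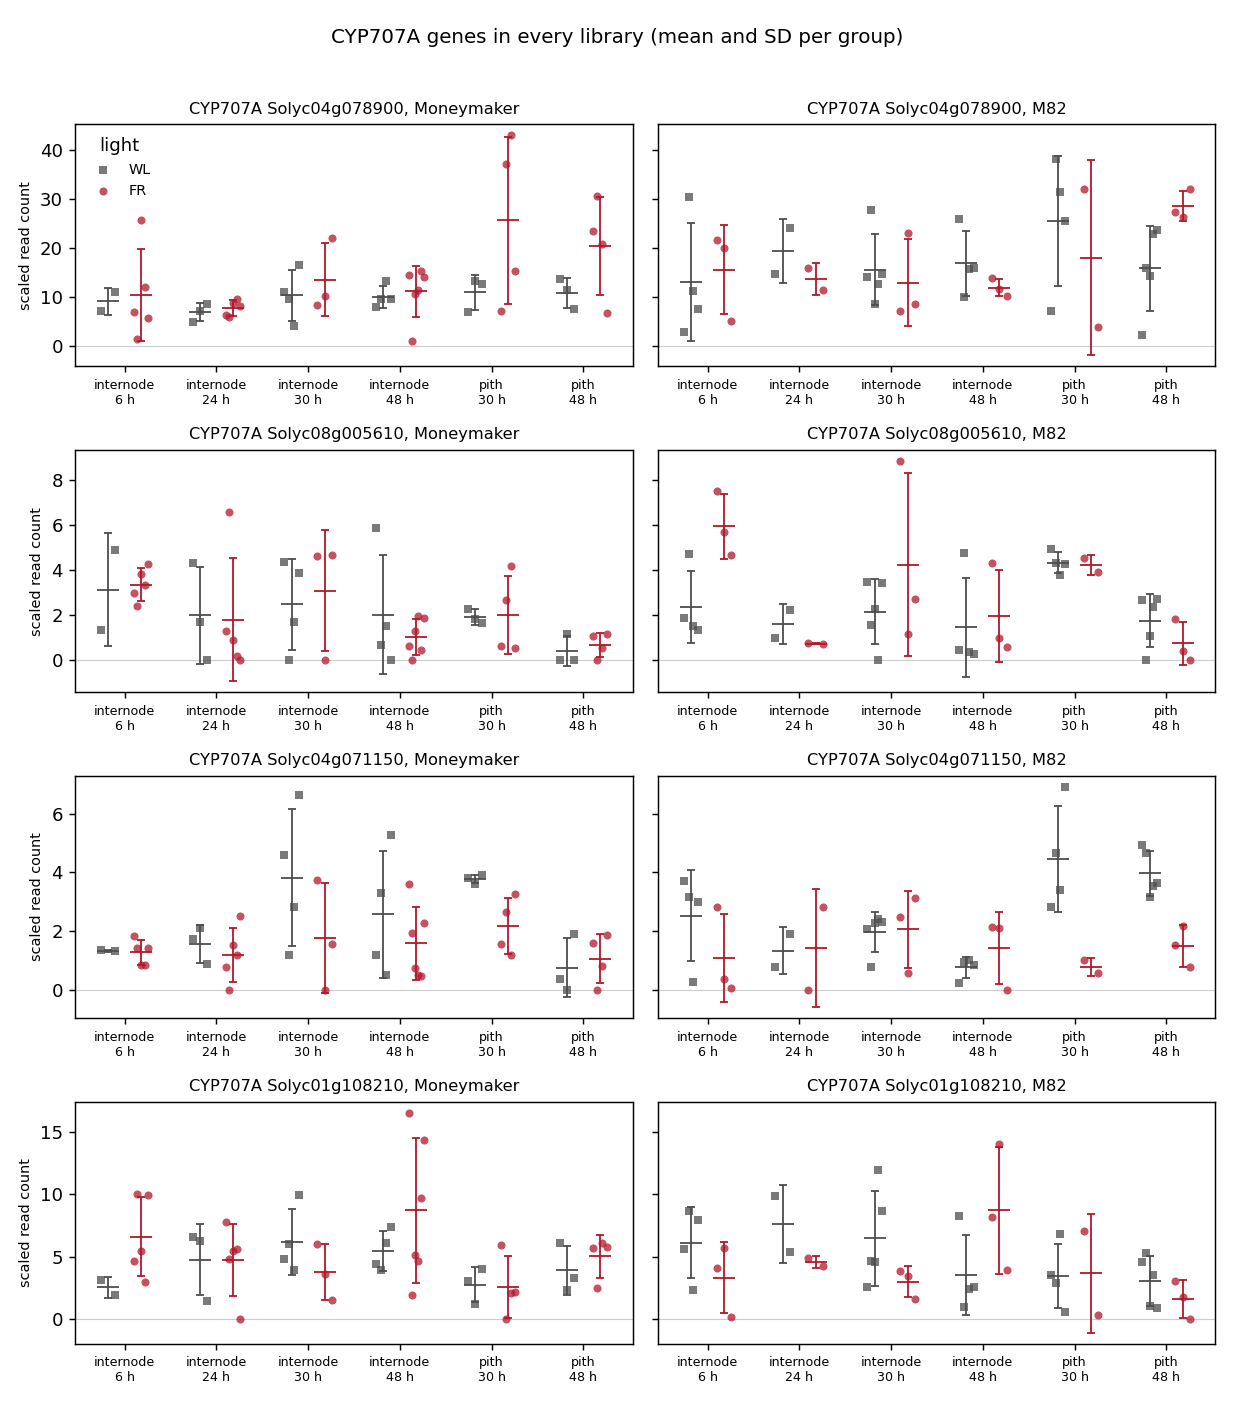
Scaled reads of the 4 CYP707A genes in each library, by tissue and hour, with Moneymaker and M82 in separate columns. Squares are WL and circles FR libraries, with the mean and SD of each group. For Solyc04g071150 in M82 pith, the FR libraries reach 2.18 at most and the WL libraries start at 2.83.

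In Moneymaker pith the same gene showed a gap at 30 h but not at 48 h. At 30 h the FR libraries held 1.56, 2.65, 1.20 and 3.27 scaled reads and the WL libraries 3.81, 3.62 and 3.90, with no overlap, as for 3.29% of all genes in that direction. At 48 h the FR libraries held 1.59, 0, 0.793 and 1.86 and the WL libraries 0.358, 0 and 1.88. Over the 2 hours the log2 fold change was -0.18 ± 0.36 (limma adjusted p = 0.963). The difference of the FR effect between the cultivars in pith was 1.12 ± 0.53 (95% interval 0.0802 to 2.15, adjusted p = 0.667), and that between pith and internode in M82 was -1.44 ± 0.52 (95% interval -2.46 to -0.411, adjusted p = 0.594). Neither difference passed the test.

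No member's FR effect was shown to differ between cultivars or tissues. In each of the 4 such tests limma called 0 of 8 members and 0% of all genes; edgeR and DESeq2 called 0 members in all 4. At an unadjusted p below 0.05 limma had 1 member in each of the 2 comparisons given above, Solyc04g071150, and 0 in the others.

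The aldehyde oxidase and the MoCo sulfurase serve the same step, and neither was called in M82 pith under FR. The aldehyde oxidase had a log2 fold change of -0.42 ± 0.21 (limma adjusted p = 0.240). At 30 h its FR libraries held 19.6 and 17.0 scaled reads and its WL libraries 38.9, 29.1, 37.4 and 44.1, without overlap, as above for Solyc04g071150 at this hour. At 48 h the groups overlapped. In Moneymaker pith at 30 h its FR libraries held 20.3, 6.63, 25.10 and 22.9 and its WL libraries 25.13, 32.5 and 33.0, again without overlap, but the difference of -0.80 ± 0.29 did not pass (limma adjusted p = 0.398).

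The MoCo sulfurase had -0.52 ± 0.24 in M82 pith (limma adjusted p = 0.200). At 48 h its FR libraries held 15.2, 16.8 and 6.13 scaled reads and its WL libraries 27.2, 15.9, 24.2, 19.1 and 26.4, which overlapped. Over the 8 members the median log2 fold change in M82 pith was -0.378, against 0.013 over all genes. In Moneymaker pith these medians were 0.048 and -0.038.

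**Figure D4:**
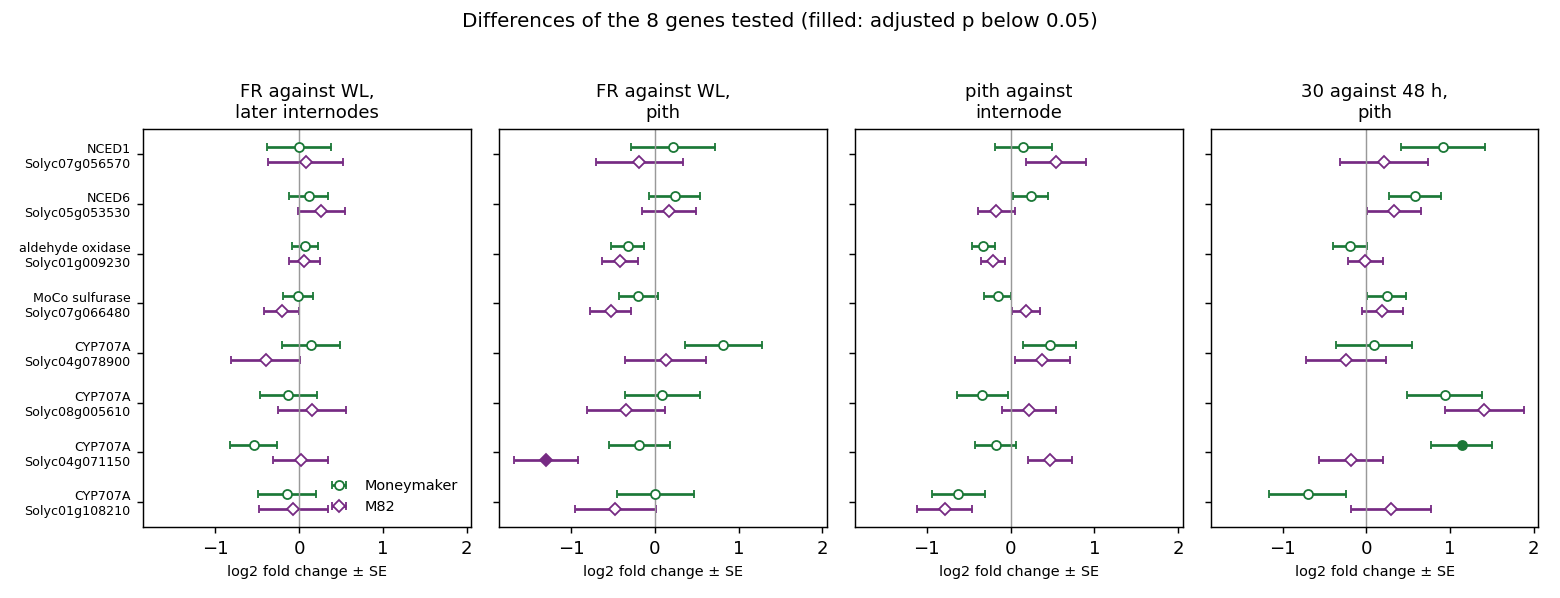
Log2 fold change with SE of the 8 tested genes for FR against WL in later internodes and in pith, for pith against internode, and for 30 against 48 h in pith. Green circles are Moneymaker and purple diamonds M82, and filled symbols have a limma adjusted p below 0.05. Filled symbols are Solyc04g071150 in M82 pith under FR, at -1.30, and in Moneymaker pith at 30 against 48 h, at 1.14.

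At single hours limma called 0 of 8 members in every FR comparison from 24 h on. The share of all genes called was 0.0946%, 0.142% and 0.158% in Moneymaker internodes at 24, 30 and 48 h, and 0.242% and 0.0736% in its pith at 30 and 48 h. In M82 it was 0%, 0.378% and 0.0315% in internodes and 0.205% and 1.1% in pith. Leaving out the 12 libraries, these shares were 0.152%, 0.242% and 0.0315% in Moneymaker internodes, 0.42% in its pith at 30 h, 1.36% and 0.0736% in M82 internodes at 30 and 48 h, and 0.0683% in M82 pith at 48 h, again with 0 of 8 members called. edgeR and DESeq2 called 0 members in each of them as well. At an unadjusted p below 0.05 limma had 1 member in Moneymaker pith at 30 h, 2 in M82 pith at 30 h, 2 in M82 pith at 48 h and 0 in the other 7 comparisons.

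Some members had FR and WL groups that did not overlap at 1 hour. In M82 pith at 48 h Solyc04g078900 held 27.4, 26.3 and 32.2 scaled reads under FR and 2.27, 15.9, 14.4, 22.9 and 23.6 in WL, a log2 difference of 1.10 ± 0.62 (limma adjusted p = 0.346); 6.92% of all genes lay wholly above WL there. Of the 5 WL libraries of this group, 3 stood apart from a label. Replicate 1, at 2.27, did so by cultivar, and replicates 5 and 6, at 22.9 and 23.6, by hour. In M82 internodes at 24 h, with 2 libraries against 2, the MoCo sulfurase held 12.5 and 12.8 under FR and 21.3 and 22.5 in WL (-0.75 ± 0.43, limma adjusted p = 1). The aldehyde oxidase lay wholly above WL at that hour, and Solyc01g108210 and Solyc08g005610 wholly below. At that hour 20.6% of all genes lay wholly below WL and 14.5% wholly above.

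NCED2, the other tomato dioxygenase long known beside NCED1, was at most 3.62 scaled reads. In M82 internodes at 48 h its FR libraries were all at 0 and its WL libraries held 1.11, 0.952, 1.02 and 0.284. The WL mean, 0.843, was at least 3.90-fold higher than the level that 3 reads over the FR group would give; 4.38% of all genes lay wholly below WL there. At 24 h in M82 its FR libraries held 0.491 and 0 and its WL libraries 1.74 and 2.53. Tested with no filter on low values, over 23050 genes, the FR effect in later M82 internodes was -0.59 ± 0.26 (limma unadjusted p = 0.0267, adjusted p = 0.465), and 0.260% of those genes were called.

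With all libraries and no filter, NCED2 was called by hour of harvest in Moneymaker and not in M82. In Moneymaker internodes it had its highest mean at 24 h, 2.41 ± 0.86 scaled reads (SD, n = 8), with every library between 1.43 and 3.62. The means at 6, 30 and 48 h were 0.738, 0.801 and 1.17. In M82 internodes the means at 6, 24, 30 and 48 h were 0.475, 1.19, 0.305 and 0.482. In Moneymaker pith the mean was 0.262 at 30 h and 1.44 at 48 h, and in M82 pith 0.144 and 1.23.

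The hours 6 and 30 fall at one time of day and 24 and 48 at another. For every gene in pith, sampled at 30 and 48 h only, time of day and length of light treatment cannot be told apart. With no filter, NCED2 was lower at 6 and 30 h than at 24 and 48 h in Moneymaker internodes, by a log2 difference of -0.66 ± 0.20 (limma adjusted p = 0.0253), where 8.03% of genes were called. It was lower at 30 than at 48 h in Moneymaker pith, by -0.91 ± 0.29 (adjusted p = 0.0461), where 5.91% were called. In M82 the pith difference was -0.89 ± 0.31 (adjusted p = 0.0978), where 3.37% were called, and the internode difference -0.27 ± 0.22 (adjusted p = 0.671), where 7.33% were called. Neither passed.

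Without the 12 libraries NCED2 gave -0.84 ± 0.20 in Moneymaker internodes (limma adjusted p = 0.00269) and -1.07 ± 0.29 in Moneymaker pith (adjusted p = 0.0112). The internode value leaves out WL 48 h replicate 1, which was set apart by hour itself. It is therefore no independent support for a difference by hour. Leaving out 1 library ended the internode call for 5 of 32: WL 6 h replicate 5 (adjusted p = 0.28), FR 30 h replicate 3 (0.0685), WL 30 h replicate 5 (0.0615), and WL 48 h replicates 7 (0.0502) and 8 (0.0591). It ended the pith call for 9 of 14: FR 30 h replicates 1 and 3, WL 30 h replicates 5 and 6, FR 48 h replicates 1 and 5, and WL 48 h replicates 2, 4 and 6. The adjusted p then ran up to 0.13, and the difference from -1.07 to -0.73. In M82 pith the call was made without 1 of the 14, WL 48 h replicate 6 (adjusted p = 0.0472).

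Solyc08g005610, of the breakdown genes, had higher values at 30 than at 48 h in M82 pith, without passing the threshold over all libraries. In M82 pith it held 3.80 to 4.95 scaled reads at 30 h in 6 libraries, with a median of 4.28, and 0 to 2.73 at 48 h in 8 libraries, with a median of 1.44. Of all genes, limma called 4.14% by hour there. The log2 difference was 1.41 ± 0.47 (limma adjusted p = 0.0713). This missed the threshold over all libraries and passed it without the 12 that stood apart, at 1.78 ± 0.52 (limma adjusted p = 0.026). Among the 12, M82 WL pith 48 h replicates 5 and 6 were set apart by hour itself. That pass therefore gives no independent support for a difference by hour. The difference also passed without FR 48 h replicate 1 alone (limma adjusted p = 0.0494).

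In Moneymaker pith Solyc08g005610 held 0.546 to 4.18 scaled reads at 30 h and 0 to 1.16 at 48 h, a difference of 0.93 ± 0.45 (limma adjusted p = 0.231). In internodes its means at 6, 24, 30 and 48 h were 3.28, 1.86, 2.74 and 1.43 in Moneymaker and 3.90, 1.16, 2.93 and 1.67 in M82. The means at 6 and 30 h were thus above those at 24 and 48 h in both cultivars. The difference was 0.68 ± 0.31 in Moneymaker (adjusted p = 0.181) and 0.90 ± 0.34 in M82 (adjusted p = 0.0934). Without the 12 libraries it was 0.95 ± 0.32 (limma adjusted p = 0.0421) and 0.83 ± 0.37 (adjusted p = 0.22). Among the 12, Moneymaker WL internode 48 h replicate 1 was set apart by hour itself. The pass in Moneymaker is therefore no independent support either.

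Of the 8 members that passed the filter, 1 was called by hour, Solyc04g071150 in Moneymaker pith. Its 7 libraries at 30 h ran from 1.20 to 3.90 scaled reads with a median of 3.27, and its 7 at 48 h from 0 to 1.88 with a median of 0.793. The groups overlapped. Solyc04g071150 was higher at 30 h by a log2 difference of 1.14 ± 0.36 (limma adjusted p = 0.038), as 1 of 8 members. There 7.32% of all genes were called in either direction and 2.55% were higher. In M82 pith the difference was -0.18 ± 0.38.

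That call, too, was marginal. Without the 12 libraries the difference was 0.99 ± 0.38 (limma adjusted p = 0.114), and edgeR gave 1.47 (adjusted p = 0.227) and DESeq2 1.51 (adjusted p = 0.157). Leaving out 1 library ended it for 9 of 14: FR 30 h replicates 3 and 5, WL 30 h replicates 2, 5 and 6, FR 48 h replicates 3 and 4, and WL 48 h replicates 2 and 4. Across all 14 the difference ran from 0.98 to 1.36 and the adjusted p from 0.0171 to 0.134.

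Of the other hour comparisons, limma called 0 of 7 members in internodes for 6 and 30 h against 24 and 48 h, where 9.87% of genes were called in Moneymaker and 9.09% in M82; NCED6 was left out of them because its choice used the 6 h values. Solyc08g005610 was the 1 member at an unadjusted p of 0.05 in each. In M82 pith limma called 0 of 8 for 30 against 48 h, with 4.14% of genes called. For 30 against 6 h it called 0 of 7 in both cultivars, with 0% of genes in Moneymaker and 0.0105% in M82. limma had 1 member at an unadjusted p below 0.05 for 30 against 48 h and 0 for 30 against 6 h. edgeR and DESeq2 called 0 members in all of these.

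No member that passed the filter was called between pith and whole internode at 30 and 48 h. limma called 0 of 8 in Moneymaker, where 1.12% of genes were called (0.657% without the 12 libraries) and 2 members had an unadjusted p below 0.05, and 0 of 8 in M82, where 2.73% were called and 1 member had one. Solyc01g108210 was lower in pith by -0.62 ± 0.31 in Moneymaker (limma adjusted p = 0.463) and -0.79 ± 0.33 in M82 (adjusted p = 0.278), neither of which passed. The aldehyde oxidase gave -0.32 ± 0.14 in Moneymaker (adjusted p = 0.318). edgeR and DESeq2 called 0 members in both cultivars.

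Markers of outer tissue moved with this comparison. The summed level of 3 epidermis genes had a median of 51.0 scaled reads in Moneymaker pith, with a range of 15.9 to 82.4, against 91.3 in internodes, with a range of 61.3 to 129.0. In M82 the medians were 46.0 and 86.6. For 3 photosynthetic genes the medians were 1542 in pith and 2063 in internodes in Moneymaker, and 1990 and 2617 in M82. The single phloem gene had 14.6 and 13.2 in Moneymaker and 16.5 and 12.1 in M82. No marker was at 0 in either tissue, and the part of other tissue in the members' values was not tested.

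No member was called between the cultivars. limma called 0 of 7 in internodes, where 0.977% of genes were called, and 0 of 8 in pith, where 0.993% were; without the 12 libraries these shares were 2.29% and 1.58%. The tools edgeR and DESeq2 also called 0. Each of the 3 tools had 1 filtered member at an unadjusted p below 0.05 in each tissue. Solyc04g078900 was lower in Moneymaker than in M82 internodes by -0.55 ± 0.24 (limma adjusted p = 0.412), and Solyc08g005610 lower in Moneymaker than in M82 pith by -0.69 ± 0.32 (adjusted p = 0.424). Neither passed. Tested with no filter, NCED2 was 0.45 ± 0.15 in Moneymaker minus M82 internodes on the log2 scale (limma unadjusted p = 0.00388, adjusted p = 0.19), where 0.928% of genes were called, and it did not pass either.

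The members did not share 1 pattern over the 24 group means. The highest Pearson correlation between members on the log2 scale was 0.58, between NCED6 and Solyc08g005610, followed by 0.56 between the MoCo sulfurase and Solyc04g071150 and 0.50 between NCED1 and the MoCo sulfurase. The lowest was -0.39, between 2 breakdown genes, Solyc04g078900 and Solyc01g108210. These points share libraries and depth, and the values describe only. NCED6 was chosen for its 6 h FR values and was near 0 elsewhere. Its correlations rest mainly on the groups behind that choice.

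By the same correlation over the 24 group means, the gene most like each of the 8 members tested was sought among 19029. It was Solyc06g071930 for NCED6 at 0.79, Solyc12g098380 for NCED1 at 0.78, Solyc06g071850 for the aldehyde oxidase at 0.77 and Solyc10g006780 for the MoCo sulfurase at 0.84. Among the breakdown genes it was Solyc10g024410 for Solyc08g005610 at 0.88, Solyc02g083620 for Solyc04g078900 at 0.81, Solyc10g047200 for Solyc04g071150 at 0.79 and Solyc06g053150 for Solyc01g108210 at 0.73. The files do not annotate these identifiers. The value for NCED6 rests mainly on the 6 h FR groups by which NCED6 was chosen.

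Other genes of the pathway were taken from a list of 38 identifiers for upstream enzymes, receptors, phosphatases, kinases, transcription factors and response genes, assigned from background knowledge that no file could check. Of these, 34 were in the table and 30 were tested. Under FR, limma called 0 of 30 in Moneymaker internodes, Moneymaker pith and M82 internodes, where 1.25%, 0.504% and 0.352% of all genes were called. At an unadjusted p below 0.05 limma had 6, 4 and 4. edgeR and DESeq2 each called 1, 0 and 0 there. In M82 pith limma called 1 of 30, lower, Solyc04g071610, at -1.06 ± 0.29 (adjusted p = 0.0299). There 3.71% of all genes were called in either direction and 1.43% were lower, so 1 call of 30 lies near the share of all genes. The list's median log2 fold change in M82 pith was -0.184, against 0.013 over all genes, and -0.026, -0.100 and -0.080 in Moneymaker internodes, Moneymaker pith and M82 internodes.

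Between pith and internode, where 1.12% of all genes were called in Moneymaker and 2.73% in M82, 0 of 30 were called by limma in Moneymaker, with 2 at an unadjusted p below 0.05, and 1 was lower in M82 pith, Solyc06g076400, at -1.01 ± 0.28 (limma adjusted p = 0.027); edgeR called 1 and 0, and DESeq2 1 and 2. Without the 12 libraries the latter gave -0.73 ± 0.26 (adjusted p = 0.13). By hour, 9.87% and 9.09% of all genes were called in Moneymaker and M82 internodes, and 7.32% and 4.14% in their pith. In internodes 3 of the list's 30 were higher and 3 lower at 6 and 30 h in Moneymaker, and 1 was higher and 7 lower in M82 (5 called without the 12 libraries, which ended the calls of Solyc02g090890 at adjusted p = 0.126, Solyc06g076400 at 0.0777 and Solyc12g096020 at 0.0535); in pith 1 was higher and 1 lower at 30 h in each cultivar. Solyc02g090390 was higher in all 4 comparisons, by 1.61 ± 0.16 and 1.82 ± 0.17 in Moneymaker and M82 internodes (limma adjusted p = 4.3e-13 and 2.8e-13) and by 1.72 ± 0.23 and 1.81 ± 0.24 in their pith (adjusted p = 4.02e-08 and 8.73e-08). Solyc04g078840 was lower in both internodes, by -0.58 in Moneymaker (adjusted p = 0.00582) and -0.64 in M82 (adjusted p = 0.00656).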

How the data were processed

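Libraries were random-primed from polyA RNA, per the labels' protocols. The submitters' processing notes list STAR, featureCounts, Trim Galore and FastQC and give no versions. For the genome build, annotation, strand setting and choice of scaling factors, the sources used here give nothing. The signal deposited by the authors is a read count divided by 1 factor per library. Whole reads were recovered from the value of 1 read in each library: with a tolerance of 0.02 of a read, 100% of the nonzero values under 2000 reads were whole. Sums of the deposited signal ran from 834614 to 1334743 per library.

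The main test was limma 3.58.1 in R 4.3.3, with trend and robust moderation, on log2(signal + 1) for genes with a mean of at least 1, with 24 group means and Benjamini-Hochberg adjustment over 19029 genes. The script was tested on simulated data. Groups were taken from the sample titles. Alternatives were pseudocounts of 0.25 and 4, no filter, edgeR 4.0.16 (TMM scaling and the quasi-likelihood test) and DESeq2 1.42.0 (size factors and its own test) on the recovered reads, a fit of the compared groups alone, the replicate number as a block, and each library left out. Leaving out the 12 libraries that stood apart from a label, and both kinds of leaving out for NCED2 with no filter, were added after seeing the data. A library was set against its cultivar label when a score of 40 genes per direction fell on the other cultivar's side, and against its hour when a score of 40 genes per direction, chosen in the other cultivar, was not beyond 1 in the labelled direction.

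The members and lists were chosen with earlier results of these data known. All 9 members are named. Of other genes, the 1 most like each tested member over the 24 group means is named. From the pathway lists some called genes are named, with those whose calls ended without the 12 libraries. The highest correlation between any 2 libraries was 0.981, and none was treated as a duplicate. Same-numbered FR and WL libraries of 1 cultivar, tissue and hour deviated together only weakly (mean residual correlation 0.0499 over 26 pairs, with 8 over 0.1). Pairs of other numbers gave -0.0086 over 125 pairs, with 32 over 0.1. The main fit therefore has no block. Same-numbered libraries of different tissues or hours were not compared in this way.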

Additional observations from a re-analysis of the deposited data

Results flagged for a closer look

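Over 105 combinations of a member and a group of 4 to 6 libraries, 14 had 1 library far from the rest. Distance was taken as the gap to the nearest neighbour relative to the group's range. The cutoff is set for about 1 in 20 groups of normally spread values, and many of these values are few reads or 0. Any lone library with reads among others at 0 passes it, so the 14 cannot be set against chance. Of the 4 for NCED6, each rests on few reads. In Moneymaker FR pith at 30 h replicate 3 held 5.306 scaled reads, from 4 reads in the shallowest library, with the next at 0.546. In M82 WL internodes at 48 h replicate 1 held 1.115, in Moneymaker FR pith at 48 h replicate 1 held 0.529, and in Moneymaker WL internodes at 30 h replicate 2 held 0.768, while the others of each group were at 0.

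Solyc08g005610 had 3 high libraries: 6.577 in Moneymaker FR internodes at 24 h replicate 3 (33 reads, next 1.294), 4.761 in M82 WL internodes at 48 h replicate 2 (next 0.446) and 4.731 in M82 WL internodes at 6 h replicate 2 (next 1.86). Among the other breakdown genes, Solyc04g078900 fell to 0.966 in Moneymaker FR internodes at 48 h replicate 3, from 1 read, with the next at 10.561. Solyc04g071150 was at 0.772 in M82 WL internodes at 30 h replicate 2, from 1 read, with the next at 2.081. Solyc01g108210 was at 2.451 in Moneymaker FR pith at 48 h replicate 3, from 2 reads, a library that stood apart from its cultivar label.

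The aldehyde oxidase was at 13.523 in Moneymaker FR internodes at 6 h replicate 4, with the next at 29.197, and at 36.196 in Moneymaker FR pith at 48 h replicate 5, with the next at 25.99. NCED2 held 2.659 in Moneymaker FR internodes at 6 h replicate 1, with the next at 0.709, and 0.36 in M82 WL pith at 30 h replicate 2, from 1 read, with the others at 0.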

How the results depend on the processing

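Low read numbers limit every result on NCED2, NCED6, Solyc04g071150 and Solyc08g005610. The fall of Solyc04g071150 in M82 pith under FR kept its direction under every alternative; the call was lost, leaving 0 members, with a pseudocount of 0.25 (-1.75, adjusted p = 0.0986), edgeR, DESeq2, a fit of the compared groups alone (adjusted p = 0.0959) and without the 12 libraries. The 30 against 48 h comparison in Moneymaker pith gave 2 members with no filter and 0 with edgeR, DESeq2, the compared groups alone (adjusted p = 0.093 for Solyc04g071150), the replicate block and without the 12 libraries. In the comparison of 6 and 30 h with 24 and 48 h, 1 member was called with no filter and 1 without the 12 libraries in Moneymaker internodes, and 1 with a pseudocount of 4 in M82 internodes. For 30 against 48 h in M82 pith, 1 was called without the 12 libraries. Since 3 of the 12 were set apart by hour, calls by hour gained without them give no independent support. Leaving out 1 library gave 0 to 1 members in 4 comparisons: M82 pith under FR, M82 internodes by hour, and Moneymaker and M82 pith by hour. The cause was not tested. The 6 h log2 difference of NCED6 was 4.92 and 1.55 in Moneymaker, and 5.86 and 2.25 in M82, with pseudocounts of 0.25 and 4. No result changed sign among those called. Scaling by TMM or size factors ended no call. With the replicate block, Solyc04g071150 gave -1.32 ± 0.38 in M82 pith under FR (adjusted p = 0.0348) and 1.08 by hour in Moneymaker pith (adjusted p = 0.0529); the numbers are not shown to pair the samples, and the block changed no other count of members. Of the counts of called members, 265 of 280 under a changed setting and 517 of 537 with 1 library left out stayed within 1.5 times the reported count. Most reported counts were 0, and 0 against 0 was taken as unchanged, so these shares say little of the calls. For the calls of Solyc04g071150, 10 repeats under a changed setting kept the call and 10 lost it. With 1 library left out, 12 repeats kept the call and 16 lost it. Of the 6 h differences, 44 of 48 and 112 of 112 moved by less than 1 SD, and 1 and 7 of these 48 and 112 turned sign.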
